A study of Homo sapiens with 4 samples.

Results

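The 8 transfer RNA genes on the minus strand of the human mitochondrial chromosome, by custom the light-strand tRNAs, were followed in ribosome footprint libraries of cells grown with or without arginine. They were chosen as the rows of the count table that lie on the mitochondrial chromosome, have the minus strand and are under 100 bases long. This gave 8 of 37 mitochondrial rows, in a table of 78724 rows of which 9443 held a read. They carry glutamine (MT-TQ), alanine (MT-TA), asparagine (MT-TN), cysteine (MT-TC), tyrosine (MT-TY), serine (MT-TS1), glutamate (MT-TE) and proline (MT-TP). The reference set was the 13 plus-strand tRNA rows without the valine tRNA, MT-TV. That row alone took 8.83% and 20.2% of all counts in control replicates 1 and 2, and 10.3% and 8.68% in arginine-free replicates 1 and 2.

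The cells were A375, an established human melanoma line, and the labels name no genetic change made to it. The control group was A375 in control medium and the other was A375 in medium made up with every amino acid but L-arginine, each for 48 h and each with 2 libraries. Nothing in the labels says that the libraries of a group came from separate cultures, so a p-value here measures only how these libraries vary, and that variation may be technical. The study's title names cancers deficient in ASS1, an enzyme of arginine synthesis, and mistranslation without arginine.

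Mitochondrial DNA is copied into a long RNA from each strand. The tRNAs sit between the other genes, and enzymes cut them out at both ends, which also frees the messenger RNAs and ribosomal RNAs. The long light-strand RNA holds these 8 tRNAs and MT-ND6, a subunit of respiratory complex I, and is otherwise antisense to genes of the heavy strand. The promoter of the light strand lies beyond MT-TP, so MT-TP is transcribed first, then MT-TE, MT-TS1, MT-TY, MT-TC, MT-TN, MT-TA and MT-TQ. A tRNA is not translated. A read on such a row is therefore a fragment of a tRNA, of its precursor or of RNA from the opposite strand that stayed in the footprint library, and the row's level does not measure translation.

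Depth limited all of these rows. Total counts were 105004 and 217989 in control replicates 1 and 2 and 234766 and 192006 in arginine-free replicates 1 and 2. The 8 rows together held 420 and 896 reads with arginine and 403 and 374 without it. The unit of level is CPM, which relates a count to all counts on tested rows of its library after correction by the TMM factor. A count of 0 would allow up to 3 counts, or 28.3 CPM in control replicate 1, the shallowest, and 13 CPM in arginine-free replicate 1, the deepest. Counting ignored strand, so reads from the light-strand tRNA and from heavy-strand RNA over the same bases cannot be told apart. The melanoma label could not be checked on this table. Of 8 melanocyte lineage genes 7 had a matching row, 4 of these (MITF, SOX10, PMEL and TYR) were listed at 0 in all 4 libraries, and the 7 rows held 59 reads in control and 3 in arginine-free medium. Of these the row at TYRP1, a melanosome enzyme, was the 1 row tested. It held 16 and 25 reads against 1 and 0 and was lower (edgeR adjusted p = 0.000104), as were 16.9% of all tested rows. The 11 matched rows of 11 markers of other cell types held 20 reads in control and 10 in arginine-free medium. The submitters' processing notes name GRCh37 while the places of these nuclear rows are on GRCh38. Reads on them, or none, thus need not be those of the genes named.

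The sum of the 8 light-strand tRNA rows was lower without arginine, and 4 of the 7 rows that could be tested fell. The summed level was 3958 and 4595 CPM in control replicates 1 and 2 and 1745 and 2349 CPM in arginine-free replicates 1 and 2. Both control libraries lay above both arginine-free ones, with means of 4277 ± 450 and 2047 ± 427 CPM (SD, n = 2 each), a ratio of means of 2.09. MT-TC, MT-TE, MT-TY and MT-TP passed the edgeR quasi-likelihood test at an adjusted p under 0.05, all lower. No row was higher, also at an unadjusted p under 0.05 (0 rows) and with DESeq2 (0 rows). Across the 2526 tested rows 16.9% were lower by the same rule and 16% were higher. The median log2 fold change of the 7 tested rows was -0.85, against -0.03 over all tested rows. Values of every tested row were below 0 on this scale, from -2.47 for MT-TC to -0.11 for MT-TQ. However, MT-TQ turned above 0 under several other settings, and MT-TA did when levels were scaled to mitochondrial rows. That scaling, here and below, used the tRNA and protein rows, the 8 light-strand rows included, without MT-TV and the rRNA rows. MT-TS1 had too few reads to enter the test. Both control libraries lay above both arginine-free libraries for 5 of the 8 rows (MT-TA, MT-TC, MT-TY, MT-TE and MT-TP), a separation in that direction also seen in 34.2% of all tested rows.

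**Figure D1:**
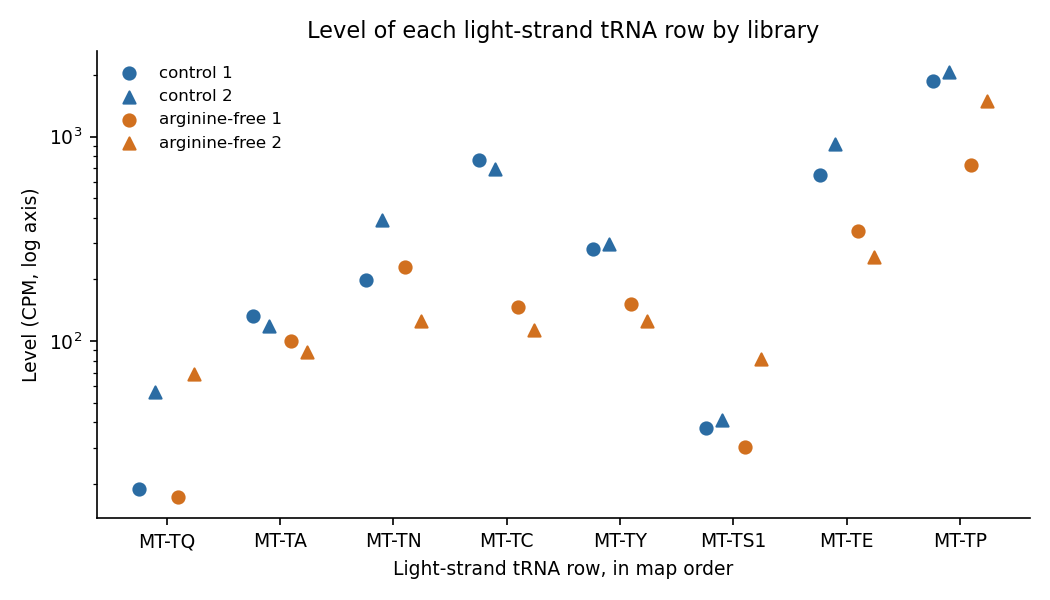
Level of each light-strand tRNA row in CPM on a log axis, in map order, with 1 point per library (blue control, orange arginine-free; circles replicate 1, triangles replicate 2). MT-TC shows the widest gap between the media, with control libraries at 773 and 697 CPM and arginine-free libraries at 147 and 113 CPM.

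The cysteine tRNA MT-TC showed the lowest log2 fold change of the 7 tested rows. Its row (mitochondrial chromosome, 5761 to 5826, minus strand, a tRNA gene of 66 bases) held 82 and 136 reads in control replicates 1 and 2, against 34 and 18 in arginine-free replicates 1 and 2. These are 773 and 697 CPM against 147 and 113 CPM, so the groups did not overlap and the gap was many times the spread within either group. The means were 735 ± 53.3 and 130 ± 24.2 CPM (SD, n = 2 each). The fitted log2 fold change was -2.47 (SE 0.26, edgeR adjusted p = 8.48e-06), which is 5.52-fold lower. MT-TC also took a smaller part of the light-strand tRNA counts, with 19.5% and 15.2% in control replicates 1 and 2 (95% Wilson intervals 16 to 23.6 and 13 to 17.7) and 8.44% and 4.81% in arginine-free replicates 1 and 2 (6.1 to 11.6 and 3.07 to 7.48). These intervals cover only the counting error of independent reads. Amplified reads without molecular identifiers are not independent molecules, so the intervals may be too narrow. The same holds for every counting interval below. The part that MT-TC took is a ratio within a library, into which no library size enters.

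The other rows of the same cluster lie beside MT-TC and had smaller fitted changes, a difference between rows that was not tested. MT-TY, the tyrosine tRNA (5826 to 5891), overlaps MT-TC by 1 base and held 30 and 58 reads with arginine and 35 and 20 without it, or 283 and 297 CPM against 152 and 126 CPM. It fell 2.08-fold (log2 fold change -1.05, SE 0.30, edgeR adjusted p = 0.0151), with both control libraries above both others. MT-TY no longer passed without control replicate 1 (log2 fold change -1.09, edgeR adjusted p = 0.096), without control replicate 2 (-0.97, edgeR adjusted p = 0.0864), with DESeq2 (adjusted p = 0.297), or scaled to mitochondrial rows (-0.42, edgeR adjusted p = 0.292).

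MT-TN, the asparagine tRNA (5657 to 5729), lies 31 bases from MT-TC across the origin of light-strand replication. Reads numbered 21 and 76 with arginine and 53 and 20 without it, or 198 and 390 CPM against 230 and 126 CPM. The groups overlapped, since arginine-free replicate 1 lay above control replicate 1, and the row did not pass (log2 fold change -0.75, SE 0.36, edgeR adjusted p = 0.131). Without arginine-free replicate 1 it stood at -1.31 and passed (edgeR adjusted p = 0.0359). Leaving out control replicate 2 put it at -0.08 (edgeR adjusted p = 0.913).

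MT-TA, the alanine tRNA (5587 to 5655), is 1 base from MT-TN. Its reads were 14 and 23 with arginine and 23 and 14 without it, or 132 and 118 CPM against 99.6 and 87.9 CPM. The control libraries were the higher ones, but the row did not pass (log2 fold change -0.38, SE 0.36, edgeR adjusted p = 0.445) and stood at 0.25 when levels were scaled to mitochondrial rows. Summed over the 4 rows MT-TA, MT-TN, MT-TC and MT-TY, levels were 1385 and 1503 CPM in control and 628 and 452 CPM in arginine-free medium, a ratio of means of 2.67.

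MT-TE, which carries glutamate (14674 to 14742), was also lower without arginine. It was hit by 69 and 180 reads with arginine and by 80 and 41 without it. In level this was 650 and 923 CPM against 346 and 258 CPM, and the groups did not overlap. It fell 2.61-fold (log2 fold change -1.38, SE 0.25, edgeR adjusted p = 0.000907). MT-TE abuts MT-ND6, the protein gene on the same strand, whose row had 368 and 338 CPM in control and 273 and 201 CPM in arginine-free medium. MT-ND6 did not pass (log2 fold change -0.55, SE 0.28, edgeR adjusted p = 0.143), and the difference between MT-TE and MT-ND6 was not tested.

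MT-TP, which carries proline (15956 to 16023) and is the tRNA nearest the light-strand promoter, was the most abundant of the 8 in every library. Its 198 and 404 reads with arginine stood against 167 and 237 without it, or 1866 and 2072 CPM against 723 and 1489 CPM. Both control libraries lay above both others, and the row fell 1.80-fold (log2 fold change -0.85, SE 0.29, edgeR adjusted p = 0.035). The arginine-free libraries differed from each other by more than the control libraries did. MT-TP stood at -0.41 without arginine-free replicate 1 and no longer passed (edgeR adjusted p = 0.167), while leaving out arginine-free replicate 2 put it at -1.43. It did not pass without control replicate 1 or control replicate 2 either (edgeR adjusted p = 0.226 and 0.106), with RLE factors (edgeR adjusted p = 0.0565), with DESeq2 (adjusted p = 0.172) or scaled to mitochondrial rows (log2 fold change -0.20, edgeR adjusted p = 0.546). MT-TP made up 47.1% and 45.1% of the light-strand tRNA counts in control replicates 1 and 2 and 41.4% and 63.4% in arginine-free replicates 1 and 2.

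The rows of glutamine and serine were near the limit of depth. MT-TQ (4329 to 4400) held 2 and 11 reads with arginine and 4 and 11 without it, 28 in all, and its groups overlapped. It overlaps the isoleucine tRNA MT-TI by 3 bases, and its change of -0.11 on the log2 scale (SE 0.71, edgeR adjusted p = 0.919) ran from -1.25 without arginine-free replicate 2 to 1.09 without control replicate 2. MT-TS1 (7446 to 7514), which lies directly beside MT-CO1 and reads the UCN serine codons, had 4 and 8 reads against 7 and 13. It was not tested, and the ratio of its summed counts per library size, arginine-free over control, was 1.29, with an exact 95% counting interval from 0.599 to 2.89. A difference between the media was not detectable at this depth for either row. With no filter on low counts MT-TS1 stood at 0.49 (SE 0.60, edgeR adjusted p = 0.763).

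**Figure D2:**
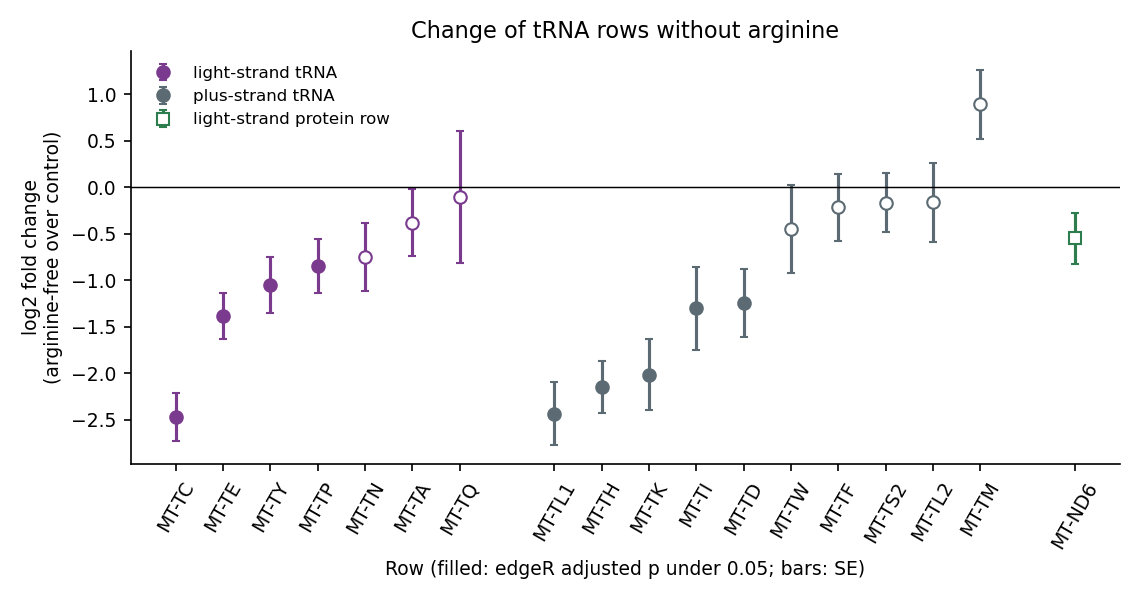
The log2 fold change (arginine-free over control) of each tested row, with SE bars, for the light-strand tRNAs (purple), the plus-strand tRNAs (grey) and MT-ND6 (green); filled points passed the edgeR test. Both kinds of tRNA spread from about -2.4 (MT-TC at -2.47, MT-TL1 at -2.43) toward 0, and MT-TM stands apart at 0.89.

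Levels of the rows are also given per length, here as CPM per kilobase. Length does not correct for reads left out of the count or for RNA of the opposite strand. The order of rows therefore describes counted reads and need not be that of tRNA amounts. In control medium MT-TP was highest at 28956 ± 2141, followed by MT-TE at 11402 ± 2796 and MT-TC at 11139 ± 807 (SD, n = 2 each). The libraries of MT-TE and MT-TC overlapped, so their order is not settled. MT-TY and MT-TN came next at 4395 ± 158 and 4025 ± 1858, also overlapping, then MT-TA at 1811 ± 143, and MT-TS1 and MT-TQ at 570 ± 34.1 and 523 ± 369. The ratio of the highest to the lowest row was 55.4. In arginine-free medium MT-TC stood among MT-TN and MT-TY, with 1972 ± 366 against 2433 ± 1007 and 2100 ± 278 CPM per kilobase (SD, n = 2 each). MT-TP kept the highest level there (16264 ± 7959) and MT-TE followed (4377 ± 911). MT-TS1, with 32 reads in all, lies between MT-TE and MT-TY on the map and was below both in each medium. Without arginine it stood at 811 ± 526 CPM per kilobase (SD, n = 2), nearer to MT-TY than in control medium. Whether these levels relate to the order of transcription was not tested.

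The plus-strand tRNAs showed a like share of lower rows, so the fall was not shown to belong to the light strand. Of the 13 reference rows 10 were tested, 5 fell (MT-TL1, MT-TH, MT-TK, MT-TI and MT-TD), none rose (1 at an unadjusted p under 0.05, MT-TM, and 0 with DESeq2) and 5 did not pass, with a median log2 fold change of -0.85. MT-TL1, a leucine tRNA, had 565 and 554 CPM in control and 65.0 and 151 CPM in arginine-free medium (log2 fold change -2.43, SE 0.34). MT-TH, the histidine tRNA, had 1282 and 1426 CPM against 212 and 415 CPM (-2.14, SE 0.28), and MT-TK, the lysine tRNA, stood at -2.01 (SE 0.38). MT-TI and MT-TD, of isoleucine and aspartate, stood at -1.30 (SE 0.45) and -1.24 (SE 0.37). In each of these 5 rows, called lower on the same libraries, both control libraries lay above both arginine-free libraries. This separation was seen in 7 of the 13 reference rows and in 34.2% of all tested rows. Of all tested rows 16.9% were called lower.

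Other reference rows stayed closer to 0 or above it. The tryptophan tRNA MT-TW had a log2 fold change of -0.45 (SE 0.48), the phenylalanine tRNA MT-TF -0.22 (SE 0.36), and MT-TS2 and MT-TL2 -0.16 each (SE 0.31 and 0.42), and none of them passed. MT-TM, the methionine tRNA, had 858 and 1816 CPM in control and 1494 and 3549 CPM in arginine-free medium, overlapping, and did not pass (0.89, SE 0.37, edgeR adjusted p = 0.08). MT-TM did pass, as higher, under 6 of the other settings, among them the replicate block (edgeR adjusted p = 0.0346) and leaving out arginine-free replicate 1 (1.37, edgeR adjusted p = 0.00593). The untested reference rows were those of glycine (MT-TG), threonine (MT-TT) and arginine (MT-TR). MT-TR, the tRNA of the amino acid left out of the medium, held 5 and 3 reads with arginine and 6 and 11 without it, a ratio of summed counts per library size, arginine-free over control, of 1.64 with an exact 95% counting interval from 0.671 to 4.39.

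The light-strand share of tRNA counts gives the comparison within each library. It was 46.7% and 39.1% in control replicates 1 and 2 (95% Wilson intervals 43.4 to 49.9 and 37.1 to 41.1) and 35.6% and 25.9% in arginine-free replicates 1 and 2 (32.8 to 38.4 and 23.7 to 28.2). The control libraries were both higher, with means of 42.9% ± 5.38 and 30.7% ± 6.85 (SD, n = 2 each). This rested on MT-TM, which held 19% and 25.3% of the reference counts in control and 47.3% and 52.8% in arginine-free medium. Without MT-TM the light-strand share was 51.9% and 46.2% in control and 51.1% and 42.5% in arginine-free medium, and the groups overlapped. Without MT-TM and MT-TF, a choice made after their values were seen, it was 57.8% and 57.4% against 67.1% and 59.6%, with the arginine-free libraries higher. In this design the smallest p-value of an exact two-sided permutation test is 0.333, so no difference between the strands was tested. As a share of all counts the 8 rows took 0.4% and 0.411% in control and 0.172% and 0.195% in arginine-free medium, while the reference rows took 0.457% and 0.641% against 0.311% and 0.558%, which overlapped.

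**Figure D3:**
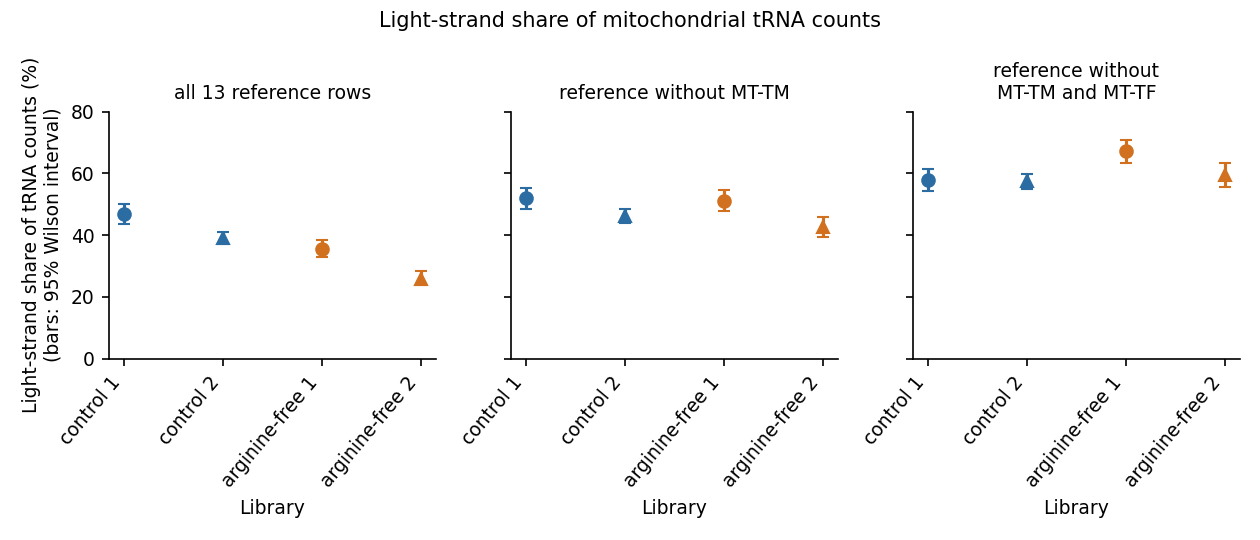
Share of mitochondrial tRNA counts on the 8 light-strand rows in each library (percent, 95% Wilson bars), against all 13 reference rows, against 12 without MT-TM, and without MT-TM and MT-TF. The lower share without arginine in the left panel (30.7% against 42.9%) is not kept in the middle panel and is turned in the right one.

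The light-strand rows also split by how the arginine-free libraries differed from each other. MT-TA, MT-TN, MT-TC, MT-TY and MT-TE had more CPM in arginine-free replicate 1 than in replicate 2, with log2 ratios of 0.18, 0.87, 0.38, 0.27 and 0.43. For MT-TQ, MT-TS1 and MT-TP replicate 2 was higher, at -2.0, -1.43 and -1.04. For 5 of the 8 rows the exact 95% counting interval of this ratio held 0, and the exceptions were MT-TN, MT-TQ and MT-TP. All 13 reference tRNAs were higher in replicate 2, 6 of them beyond counting error, and all 13 protein rows were higher in replicate 1, 10 of them beyond counting error. MT-ND6, at 0.44 and within counting error, was thus on the side of the 5 light-strand rows, as was every other protein row. Between the control libraries 2 of the 8 rows differed beyond counting error, MT-TN and MT-TE, both higher in replicate 2. This split was seen in the values and was not tested.

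**Figure D4:**
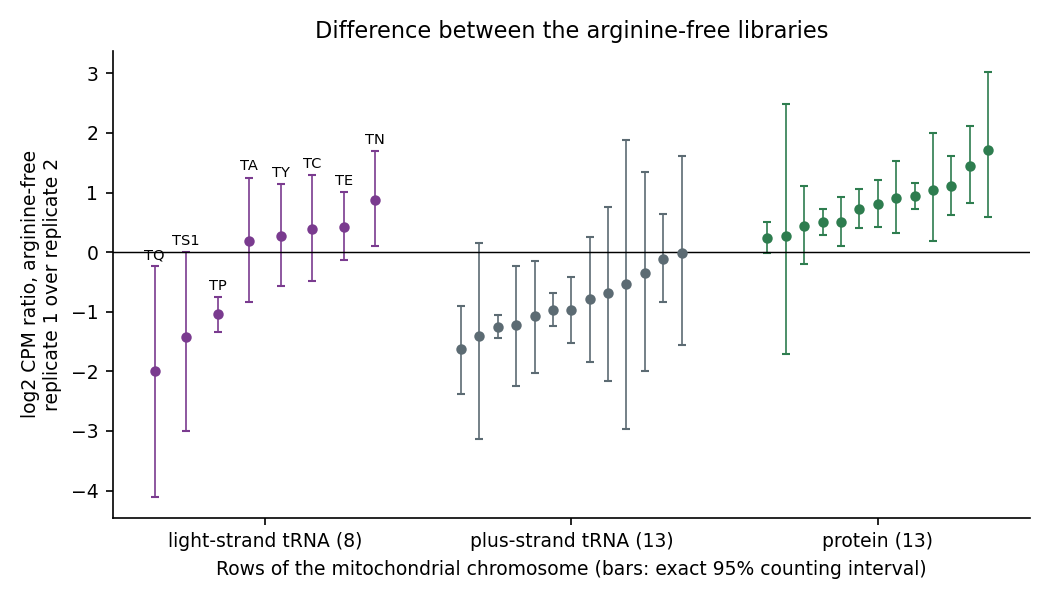
The log2 ratio of CPM in arginine-free replicate 1 over replicate 2 for the 8 light-strand tRNA rows (named), the 13 plus-strand tRNA rows and the 13 protein rows, with exact 95% counting intervals. The reference rows all lie below 0 (median -0.97), the protein rows all above (median 0.81), and the light-strand rows on both sides (from -2.0 to 0.87).

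The mitochondrial rows most like the summed light-strand tRNAs were found by the distance between centred log2 CPM over the 4 libraries. They were MT-TI (distance 0.36), MT-TD (0.37) and MT-ATP8 (0.73), 2 plus-strand tRNAs and a subunit gene of ATP synthase, and MT-ND6 stood at 0.82. The points share their libraries, and 4 libraries separate such distances poorly. Next to the members, MT-CO1, a subunit gene of cytochrome c oxidase that lies between MT-TY and MT-TS1, fell (log2 fold change -1.07, SE 0.29, edgeR adjusted p = 0.0114). MT-CYB beside MT-TE stood at -0.60 (SE 0.23, edgeR adjusted p = 0.0556). Of the 13 protein rows 3 fell and none rose (0 also at an unadjusted p under 0.05 and with DESeq2), with a median of -0.62. All 13 lay below 0, and 7 were lower at an unadjusted edgeR p under 0.05. DESeq2 called 1 of them lower. Of all tested rows 16.9% were called lower by edgeR.

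Nuclear genes that transcribe, cut, modify or charge mitochondrial tRNAs were hardly measured. Of 53 such genes 51 had a matching row, 33 of these were listed at 0 and 5 were tested. DESeq2 called none of these genes in either direction (1 higher at an unadjusted p under 0.05). With edgeR 1 of the 5 tested rows was higher and none was lower (0 also at an unadjusted p under 0.05). Across all 2526 tested rows edgeR called 16% higher and 16.9% lower. The higher one was the row at HARS2, the mitochondrial histidyl-tRNA synthetase, with 58 and 107 reads in control and 211 and 128 in arginine-free medium (log2 fold change 0.65, SE 0.21, edgeR adjusted p = 0.0293). The row at POLRMT, the mitochondrial RNA polymerase, stood at -0.23 (SE 0.23), that at NSUN2, a tRNA methyltransferase, at 0.47 (SE 0.26) and that at HSD17B10, a subunit of the enzyme that cuts tRNA 5′ ends, at -0.48 (SE 0.53). The processing notes name GRCh37 while these places are on GRCh38, so reads on a nuclear row need not come from the gene named there.

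Of the 4 rows called lower, MT-TC and MT-TE kept their call in the most alternatives. Both passed in 14 of 15 alternatives, and MT-TC ranged from -2.69 to -1.83 and MT-TE from -1.64 to -0.74. The exception for both was scaling each library to the 13 reference tRNA rows, added after seeing the data, where MT-TC stood at -2.09 (edgeR adjusted p = 0.192), MT-TE at -0.89 (edgeR adjusted p = 0.686) and none of the 7 tested rows passed (1 was lower at an unadjusted p under 0.05). MT-TY passed in 9 of 14 alternatives and MT-TP in 8 of 15. DESeq2, run without the filter on low counts, gave an adjusted p for 7 of the 8 rows, not for MT-TQ, and called 2 of them lower, MT-TC and MT-TE. It called 5.51% of the 2669 rows with an adjusted p lower.

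**Figure D5:**
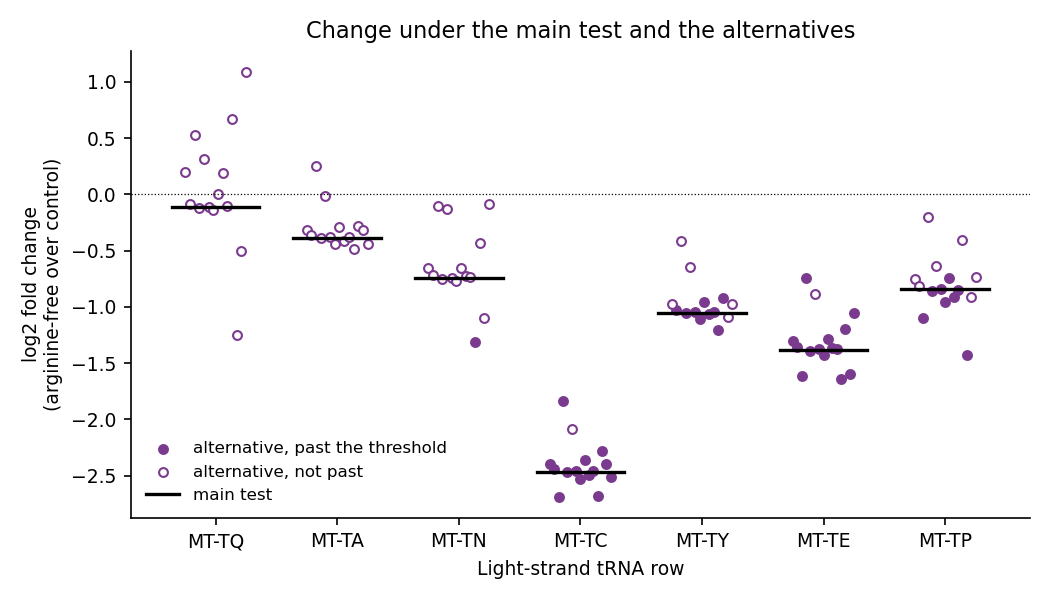
The log2 fold change (arginine-free over control) of each tested light-strand row under the main test (black line) and each alternative (points; filled past the threshold of 0.05). MT-TN, MT-TC, MT-TY, MT-TE and MT-TP stay below 0 throughout, while MT-TQ runs from -1.25 to 1.09 and MT-TA from -0.48 to 0.25.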

How the data were processed

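Ribosome footprint reads from 4 A375 libraries were read as 75-base single reads without removal of ribosomal RNA, per the labels' protocols. The authors deposited raw counts from featureCounts 2.0.1 over exons of GENCODE 47, per the file headers. The command sets no strand option and a paired-read option, whose effect was not tested, and it does not ask for reads on several places or several genes, which featureCounts then leaves out. Reads that span 2 neighbouring tRNA rows are therefore not counted. Bowtie2 2.5.2, TopHat2, cutadapt, GRCh37 and hg19 are named in the submitters' processing notes, without their roles. Some copies of hg19 hold another mitochondrial sequence, and which was used is not given in the sources used here, so row edges may be shifted against the reads.

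All 37 mitochondrial rows shared start and end with RefSeq genes of GRCh38.p14, which gave their names. Row lengths are those in the deposited table. Counts were tested with edgeR 4.0.16 (R 4.3.3): filterByExpr by group, TMM factors, quasi-likelihood test over 2526 rows, Benjamini-Hochberg adjustment, threshold 0.05. SE is the absolute log2 fold change over the root of F. DESeq2 1.42.0 was an alternative. The test was tried on simulated counts. Tables were handled with Python 3.11.15, pandas 2.3.3 and SciPy 1.17.1. Members and lists were chosen with earlier results of these data known. Named rows are all members, reference tRNAs, map neighbours, MT-ND6 and the 3 rows nearest in pattern, plus the nuclear lists. The values of 1 tested nuclear row are not reported here.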

Additional observations from a re-analysis of the deposited data

How the results depend on the processing

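Alternatives changed 1 choice at a time, with the tested rows kept when a library was left out, except that DESeq2 came with its own size factors and filter and was given 9443 rows. The scaling to reference tRNA rows and the share without MT-TM and MT-TF were added after seeing the data, and the other alternatives were planned. Of 101 alternative values for the 7 tested rows, 78 kept direction and side of the threshold, 14 no longer passed, 1 newly passed and 8 turned sign, none of which was past the threshold. MT-TQ turned to 0.20 with DESeq2, 0.0075 with no filter, 0.53 scaled to mitochondrial rows, 0.31 scaled to reference tRNA rows and 0.19 with the replicate block, and ran from -1.25 to 1.09 leaving out a library. MT-TA turned to 0.25 scaled to mitochondrial rows. The 4 lower light-strand rows became 2 with DESeq2, 2 scaled to mitochondrial rows, 0 scaled to reference tRNA rows (edgeR, 1 at an unadjusted p under 0.05), and 2 to 4 leaving out a library (2 without either control replicate). The 5 lower reference rows became 2 with DESeq2, 2 when each library of a group had to hold 50 counts or more, 3 scaled to mitochondrial rows, 0 scaled to reference tRNA rows (edgeR, 2 at an unadjusted p under 0.05), and 3 to 7 leaving out a library. No reference row was higher in the main test, and 1, MT-TM, was with total counts only, with no filter, scaled to mitochondrial rows and with the replicate block, and 0 to 1 leaving out a library. Over all rows, 428 lower and 405 higher became 147 and 162 with DESeq2, 146 and 138 with at least 50 counts, 211 and 957 scaled to mitochondrial rows and 33 and 43 scaled to reference tRNA rows. Leaving out a library gave 134 to 470 lower and 88 to 427 higher. Scaling to mitochondrial rows, without MT-TV and the rRNA rows, moved the median log2 fold change of all rows from -0.03 to 0.61. With scaling to reference tRNA rows it was 0.36. The difference in light-strand share, -12.1 percentage points, became -1.20 with MT-TV in the reference, -2.23 without MT-TM and 5.72 without MT-TM and MT-TF. With MT-TV in the reference the share was 4.13% and 1.94% in control replicates 1 and 2. In arginine-free replicates 1 and 2 it was 1.59% and 2.06%, so the groups overlapped. These shares are far below the main means of 42.9% and 30.7%, so the -1.20 points are not on the same scale as the -12.1. The cause of these shifts was not tested, although fewer rows or libraries enter some settings by construction. Taken over all tested rows, same-numbered libraries did not deviate together (r = -0.05 over 2526 rows). Single rows did, since MT-TM, MT-TF and MT-TW were higher in replicate 2 of both media beyond counting error. MT-TN instead was higher in replicate 2 in control and in replicate 1 without arginine. With the replicate block 4 light-strand rows were lower, the same count as without it. Few reads per row (28 on MT-TQ, 32 on MT-TS1) limit what can be seen.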
